A study of Mus musculus with 50 samples.

Results

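Fgfr2 and Fgfr3 encode fibroblast growth factor (FGF) receptors, and their transcripts were counted by CosMx spatial molecular imaging in sections of liver from control and HIRA KO mice. The 2 genes are 2 of 1000 gene targets of the panel. They were chosen by levels already seen in these data, across stellate, biliary, hepatocyte and other cells and between the genotypes, so those levels are given as a description with no test. Fgfr2 lies at chr7:130162451-130266808 on the minus strand and Fgfr3 at chr5:33721724-33737068 on the plus strand (RefSeq, GRCm38.p6).

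FGF receptors are receptor tyrosine kinases that span the cell membrane. An FGF ligand held by heparan sulfate pairs up the receptors, and the signal runs through docking proteins and the MAP kinase cascade, while Sprouty and dual-specificity phosphatase proteins dampen it. Splicing of the outer domain of FGFR2 and FGFR3 decides which ligands they bind. The epithelial form of FGFR2 answers ligands made by mesenchyme, such as FGF7. In liver, hepatocytes are best known for FGFR4 with the co-receptor beta-Klotho, which together sense the intestinal FGF15 signal on bile acid synthesis.

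The livers came from HIRA fl/fl mice (HIRA_KO) and wildtype mice (WT, here control), all C57BL/6. Both groups were injected with the virus AAV8 Tbg-Cre when 6 months old and were examined 12 months later, at 18 months. The vector drives Cre from a thyroxine-binding globulin promoter, active in hepatocytes, so that HIRA, a chaperone for histone H3.3, is removed from hepatocytes, and controls carry the virus and Cre too. Hira transcripts were not analysed here, so the deletion itself was not checked. The labels give the genotype of each of 50 fields of view and name no mouse, so the tissue area, a run of consecutive fields of view, served as the replicate, with 3 areas per group. All control areas lay on one side of a single slide and all HIRA KO areas on the other, so side and genotype cannot be told apart. If areas do not stand for separate mice, the p-values below measure only the spread between areas.

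Of 52132 segmented cells 49665 were kept, with 6801 to 10171 cells and 718991 to 1542205 gene counts per area. The median cell held 88 to 147 gene counts. HIRA KO areas held more gene counts per cell area (0.62 on the log2 scale), so levels are given as counts per 10000 gene counts. The 10 negative probes, which match no transcript, gave 1107 to 3828 counts each, and 243 targets did not exceed the highest of them. Fgfr2 gave 4383 counts, rank 647 of 1000 targets and 1.51 times the mean negative probe. Fgfr3 gave 8645 counts, rank 138 and 2.98 times the mean negative probe. These totals are small for single cells. Among hepatocyte-like cells 1152 of 14473 held a Fgfr2 transcript, and in the 6 classes described below no cell held more than 6 of Fgfr2 or 9 of Fgfr3.

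Probes of paralogous receptors could in principle read each other's transcripts. The probe sequences were not used here. Between the annotated protein-coding transcripts of Fgfr2 and Fgfr3, 0 stretches of 20 bases were identical. At this length Fgfr3 shared 8 stretches with Fgfr1 and 3 with Fgfr4, and Fgfr2 shared 1 with Fgfr1, where stretches may overlap one another. At 25 bases Fgfr3 still shared 2 with Fgfr1. At 35 bases neither gene shared any with Fgfr1 or Fgfr4.

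Cells were grouped into classes by clustering that left out all FGF ligands and receptors, so no count of either gene could form a class. Names end in "-like" because they rest on marker genes. All 15 measured stellate markers were highest in stellate-like cells among the 6 classes for which each area held 100 cells or more. So were 12 of 13 biliary markers in cholangiocyte-like cells and 11 of 13 hepatocyte markers in hepatocyte-like cells, where Apoe and Crp were the exceptions. The same markers named the clusters and were among the genes that formed them, so these counts describe the classes and do not test their names.

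Fgfr2 was highest in stellate-like cells, the vitamin A-storing and matrix-forming cells of the sinusoid wall. Its level there was 13.4, 14.9 and 20.2 counts per 10000 in control areas 1, 2 and 3, and 9.96, 12.9 and 21.97 in HIRA KO areas 1, 2 and 3. The third area was the highest of both groups and the first the lowest of both. The mean was 15.5 ± 4.60 (SD, n = 6 areas), or 4.23 ± 1.48 times the mean negative probe, and Fgfr2 ranked 122 of 1000 targets in this class. Stellate-like cells held 8.41% of all gene counts and 19.5% of Fgfr2 counts.

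Cholangiocyte-like cells, named by markers of the bile duct lining, came next for Fgfr2. In HIRA KO liver the paper reports cells derived from hepatocytes that carry a cholangiocyte marker, so this class need not be duct lining alone. The control areas gave 12.0, 8.76 and 10.8 counts per 10000 and the HIRA KO areas 10.3, 11.4 and 16.6, with a mean of 11.6 ± 2.69 (SD, n = 6). Stellate-like exceeded cholangiocyte-like cells in 5 of 6 areas, and the ranges overlapped, so the order of these 2 classes does not stand beyond the spread of areas. Both stood apart from the classes below them: the lowest stellate-like area (9.96) and the lowest cholangiocyte-like area (8.76) lay above every area of the other 4 classes, of which a T/NK-like area was the highest (7.57).

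In hepatocyte-like cells, by contrast, the level of Fgfr2 could not be separated from that of the negative probes. Its level was 4.30, 5.26 and 5.82 in the control areas and 5.52, 4.69 and 4.81 in the HIRA KO areas, which is 1.07 ± 0.07 times the mean negative probe (SD, n = 6). It exceeded the highest single negative probe in 0 of 6 areas and ranked 792 of 1000 targets. Endothelial-like, T/NK-like and Kupffer-like cells had means of 5.02, 5.47 and 5.67 counts per 10000. These 3 classes and the hepatocyte-like cells overlapped one another in range, and no order was read from them. Set within each area, the stellate-like level was at least 1.80 to 4.57 times the hepatocyte-like level, a lower bound because the latter is that of the negative probes.

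**Figure D1:**
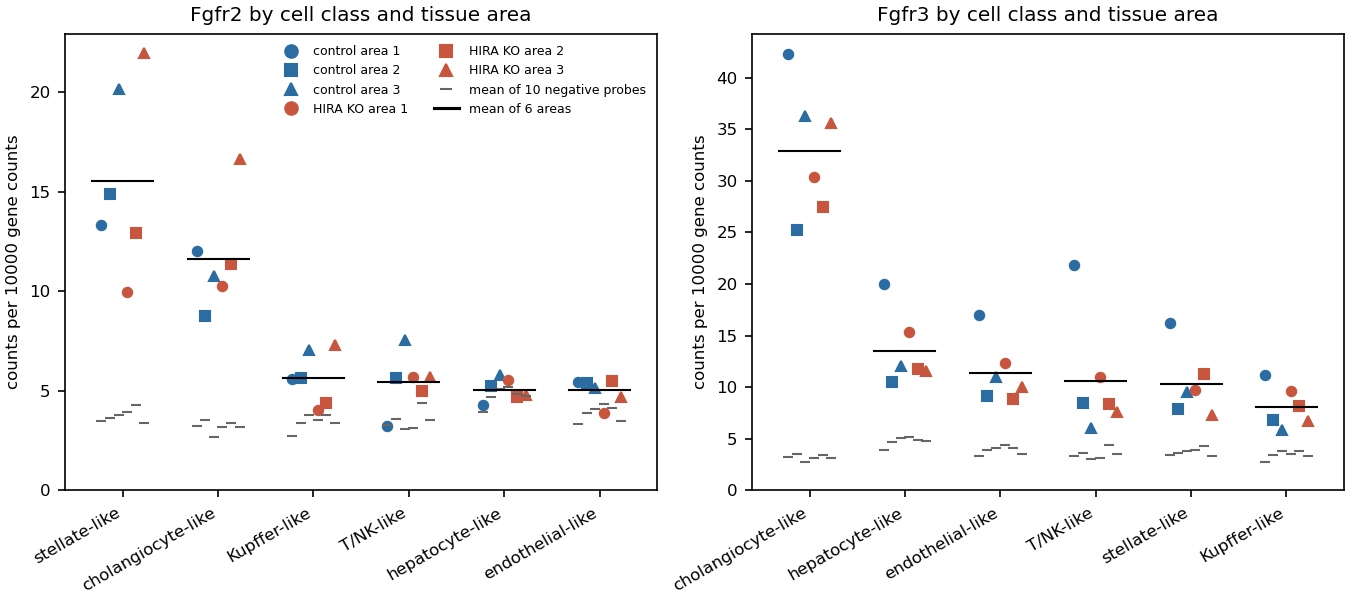
Level of Fgfr2 (left) and Fgfr3 (right) in counts per 10000 gene counts, by cell class in order of the mean; points are the 3 control (blue) and 3 HIRA KO (red) areas, black lines the mean of 6 areas and grey dashes the mean of the 10 negative probes in each area. Fgfr2 stands out in stellate-like (mean 15.5) and cholangiocyte-like cells (11.6), Fgfr3 in cholangiocyte-like cells (32.9), and control area 1 is the highest Fgfr3 point of every class shown.

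The stellate-like class was made of 2 clusters that differed in Fgfr2. The larger, with 4434 cells led by Dcn, Bgn and Cxcl12, held 15.1, 15.96 and 22.3 counts per 10000 in the control areas and 10.2, 13.7 and 23.3 in the HIRA KO areas. The smaller, with 864 cells led by Gsn, Mgp and Dpt, a gene of fibroblasts around vessels, held 5.21, 7.57 and 3.64 in the control areas and 8.56, 8.45 and 8.28 in the HIRA KO areas. The Dcn-led cluster was the higher in 6 of 6 areas, by 16.8 ± 5.08 against 6.95 ± 2.05 (SD, n = 6). The myofibroblast-like cluster, led by the contractile genes Acta2 and Tagln, lay near the second of these at 7.04 ± 1.56. Its control area 3 (9.61) lay above the lowest cholangiocyte-like area (8.76). Of these 3 mesenchymal clusters, the Dcn-led alone had Fgfr2 above 10 counts per 10000 on average.

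Fgfr3 had another pattern. It was highest in cholangiocyte-like cells, at 42.3, 25.2 and 36.3 counts per 10000 in the control areas and 30.4, 27.5 and 35.6 in the HIRA KO areas. The mean of 32.9 ± 6.35 (SD, n = 6) was 10.4 ± 2.62 times the mean negative probe, and Fgfr3 ranked 27 of 1000 targets in this class. The lowest of these areas lay above the highest hepatocyte-like area (19.97) and above every area of the other 4 classes, and within each area cholangiocyte-like exceeded hepatocyte-like cells by 1.98 to 3.07 times. Cholangiocyte-like cells held 5.09% of gene counts and 13.05% of Fgfr3 counts.

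Among the rest of the 6 classes Fgfr3 was lower and more even. Hepatocyte-like cells had 19.97, 10.5 and 12.04 counts per 10000 in the control areas and 15.4, 11.8 and 11.6 in the HIRA KO areas, 2.91 ± 1.07 times the mean negative probe and above the highest negative probe in 6 of 6 areas. Endothelial-like cells followed with 11.4 ± 3.02, T/NK-like with 10.6 ± 5.76, stellate-like with 10.3 ± 3.20 and Kupffer-like cells with 8.07 ± 2.002 (SD, n = 6 each). All neighbours in this order overlapped in range. The myofibroblast-like cluster, too small in some areas to be among the 6 classes, had a higher Fgfr3 mean than hepatocyte-like cells, 15.5 ± 5.53 (SD, n = 6). Its HIRA KO area 3 (25.6) lay above the lowest cholangiocyte-like area (25.2). Hepatocyte-like exceeded Kupffer-like cells in 6 of 6 areas, by 1.44 to 2.04 times, yet the level in immune and endothelial classes was itself 2.42 to 3.08 times the negative probes. Among the hepatocyte-like clusters the Neat1-led had the highest Fgfr3 mean, 15.2 ± 2.96, and the Glul-led the lowest, 12.0 ± 6.03, within the spread of areas.

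The probes for Fgfr2 and Fgfr3 need not be equally efficient, so their levels were not compared directly, and only the change of their ratio between classes was read. Fgfr3 over Fgfr2 had a median of 2.92 over areas in cholangiocyte-like cells and 0.70 in stellate-like cells. The stellate-like ratio ranged from 0.33 to 1.21 and the cholangiocyte-like ratio from 2.14 to 3.51, with no overlap.

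**Figure D2:**
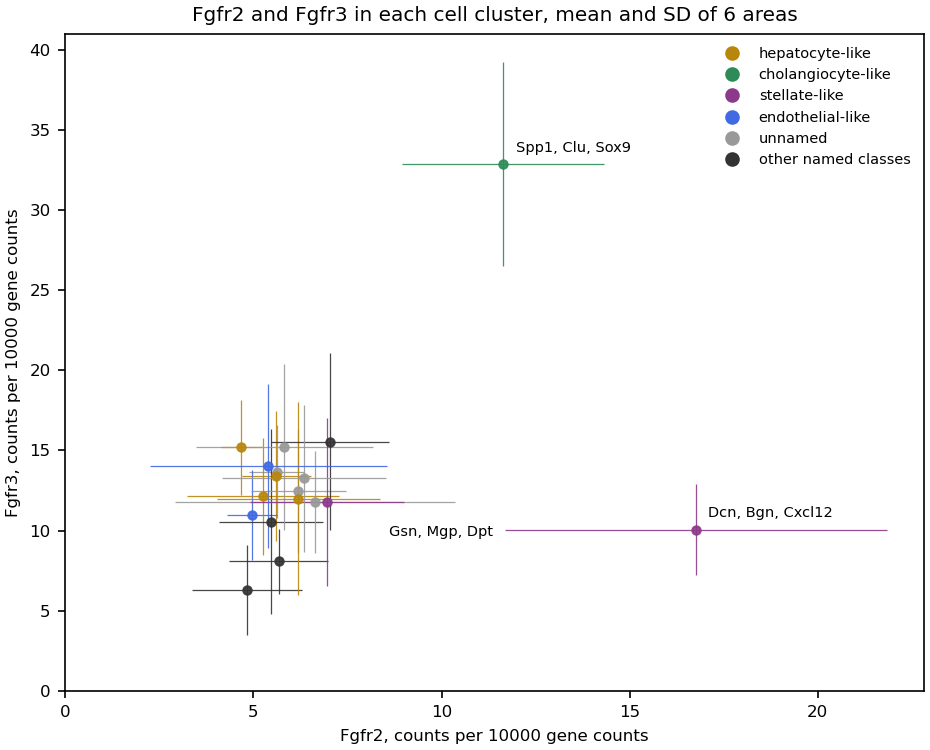
Level of Fgfr2 (horizontal axis) against Fgfr3 (vertical axis), both in counts per 10000 gene counts, for each cluster with at least 20 cells in every area; points are means and bars SDs of 6 areas, coloured by class. The Spp1-led cholangiocyte-like cluster (11.6 and 32.9) and the Dcn-led stellate-like cluster (16.8 and 10.1) lie apart from the rest.

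Control area 1 stood apart for Fgfr3. It was the highest of the 6 areas in all 6 classes, at 1.39 to 2.60 times the median of the other areas, and the excess over all cells (1.62 times) ranked 7 of 757 targets above the negative probes. Its 9 fields of view ran from 14.7 to 25.4 counts per 10000 with a median of 19.4, whereas the medians of the other areas ran from 10.3 to 13.2. Single fields overlapped, as those of HIRA KO area 1 reached 21.6. The negative probes in that area were the lowest of the 6 over all cells (3.64), and Fgfr2 there was 0.99 times the median of the other areas. Values for Fgfr3 by genotype are therefore given with and without this area.

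Between genotypes the areas of both groups overlapped for either gene. Fgfr2 over all cells had 6.21, 6.30 and 8.39 counts per 10000 in the control areas and 5.80, 6.18 and 6.33 in the HIRA KO areas. Fgfr3 had 18.97, 10.5 and 11.7 against 13.2, 12.2 and 10.3. Within the slide rows, each with 1 area of either group, the log2 difference of Fgfr2 over all cells was -0.10, -0.03 and -0.40, lower in the HIRA KO area of 3 of 3 rows, and that of Fgfr3 was -0.51, 0.22 and -0.19. The groups also overlapped for both genes in hepatocyte-like, cholangiocyte-like and stellate-like cells. Of 998 targets with counts, 19.2% had groups that did not overlap over all cells, 21.4% in hepatocyte-like, 10.8% in cholangiocyte-like and 13.8% in stellate-like cells. Because the genotype contrast was in view when the genes were chosen, nothing is read from these shares.

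In stellate-like cells, where Fgfr2 was highest, the group means were 16.1 ± 3.57 in control and 14.96 ± 6.25 in HIRA KO areas (SD, n = 3 each), a difference of -0.17 on the log2 scale. Within the slide rows the difference was -0.42, -0.20 and 0.12. In cholangiocyte-like cells the Fgfr2 means were 10.5 ± 1.65 and 12.8 ± 3.41, a difference of 0.26. For Fgfr3 in cholangiocyte-like cells the means were 34.6 ± 8.66 and 31.1 ± 4.11. Without control area 1 the control mean fell to 30.8, and the sign of the log2 difference turned from -0.13 to 0.03. In hepatocyte-like cells the Fgfr3 means were 14.2 ± 5.07 and 12.9 ± 2.15. Without control area 1 the log2 difference went from -0.09 to 0.18. Scaled to cell area in place of gene counts, the log2 difference over all cells was 0.44 for Fgfr2 and 0.46 for Fgfr3, which moves with the higher gene counts per cell area in HIRA KO areas.

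Where a cell lay gave measures that the choice of genes did not use. They were compared within areas over 6 areas by an exact sign-flip permutation test (two-sided), with Benjamini-Hochberg adjustment over 11 comparisons. The smallest p that 6 areas allow is 0.0313, and none of the 11 comparisons passed after adjustment. At least 7 of the 11 would have had to reach that smallest p for any to pass, so the adjusted values say little about the single comparisons.

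Hepatocyte-like cells with at least 1 cholangiocyte-like cell among their 20 nearest cells held more Fgfr2 than those with none, in 6 of 6 areas. This neighbour rule, met by 5698 of 14473 hepatocyte-like cells, is called beside ducts below, although no duct was outlined. The mean levels were 5.96 and 4.64 counts per 10000. The log2 ratio was 0.35 ± 0.27 (SD, n = 6, p = 0.0313, adjusted p = 0.229, exact sign-flip permutation test). Both mean levels lay below the highest single negative probe of hepatocyte-like cells (6.36 pooled over areas). Fgfr2 in this class could not be separated from the negative probes, which limits what the difference can mean. Fgfr3 was higher beside ducts in 5 of 6 areas, at 14.03 against 13.2 (log2 ratio 0.08 ± 0.06, adjusted p = 0.229, exact sign-flip permutation test). The negative probes moved by 0.05. The biliary gene Spp1, the gene for osteopontin, moved further between the same cells, from 2.87 away from ducts to 5.48 beside them, against 117 in the cholangiocyte-like cells themselves. Of 3 other biliary genes, Clu was 34.98 beside and 26.6 away (higher in 6 of 6 areas) and Sox9 7.91 and 6.39 (5 of 6), but Krt8 was 13.4 and 14.8 (2 of 6). Glul, a marker of hepatocytes around the central vein, was 22.4 beside and 64.7 away (higher beside in 0 of 6 areas). The 2 groups thus also differed in a marker of place in the lobule, whose part in the Fgfr2 difference was not tested. Whether transcripts of neighbouring cholangiocyte-like cells are counted in these hepatocyte-like cells was not tested.

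In stellate-like cells the direction for Fgfr2 was the opposite. Beside cholangiocyte-like cells it was 13.3 and away from them 16.9, lower in 5 of 6 areas with a log2 ratio of -0.35 ± 0.34 (SD, n = 6; p = 0.0625, adjusted p = 0.229, exact sign-flip permutation test). The Gsn-, Mgp- and Dpt-led cluster with low Fgfr2 made up 21.7% of stellate-like cells beside ducts and 11.1% away from them. Among cells of the Dcn-led cluster alone, Fgfr2 was higher beside ducts in 1 of 6 areas, with a log2 ratio of -0.16 (p = 0.344, exact sign-flip permutation test). Fgfr3 in stellate-like cells had 10.1 beside and 10.4 away, with 2 of 6 areas higher beside ducts, and in the Dcn-led cluster alone its log2 ratio was -0.34 (p = 0.219, exact sign-flip permutation test).

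The distance to the nearest cholangiocyte-like cell, in image pixels, showed the same in steps, as a description. Fgfr2 in stellate-like cells had a mean of 10.2 ± 4.33 within 150 pixels, 12.6 ± 3.34 at 150 to 300, 15.9 ± 4.51 at 300 to 600 and 17.1 ± 6.95 at 600 to 1200 (SD, n = 6 areas). Beyond 1200 pixels it was 19.7 ± 1.21 in the 4 areas with at least 20 such cells, a smaller set of areas than in the nearer steps. Stellate-like cells were not alone in having their highest Fgfr2 in the farthest step. Endothelial-like cells had 5.32 in the nearest step, 3.37 at 150 to 300 pixels and 7.19 ± 1.03 beyond 1200 (5 areas). Kupffer-like cells had 7.28, 4.57 and 7.82 ± 1.79 (4 areas) in the same steps. In hepatocyte-like cells Fgfr2 went the other way, from 6.60 ± 1.30 within 150 pixels to 4.57 ± 0.55 beyond 1200, where the negative probes were at 4.80. Fgfr3 in hepatocyte-like cells was 16.6 ± 3.93 in the nearest step and 12.1 ± 2.72 in the farthest.

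**Figure D3:**
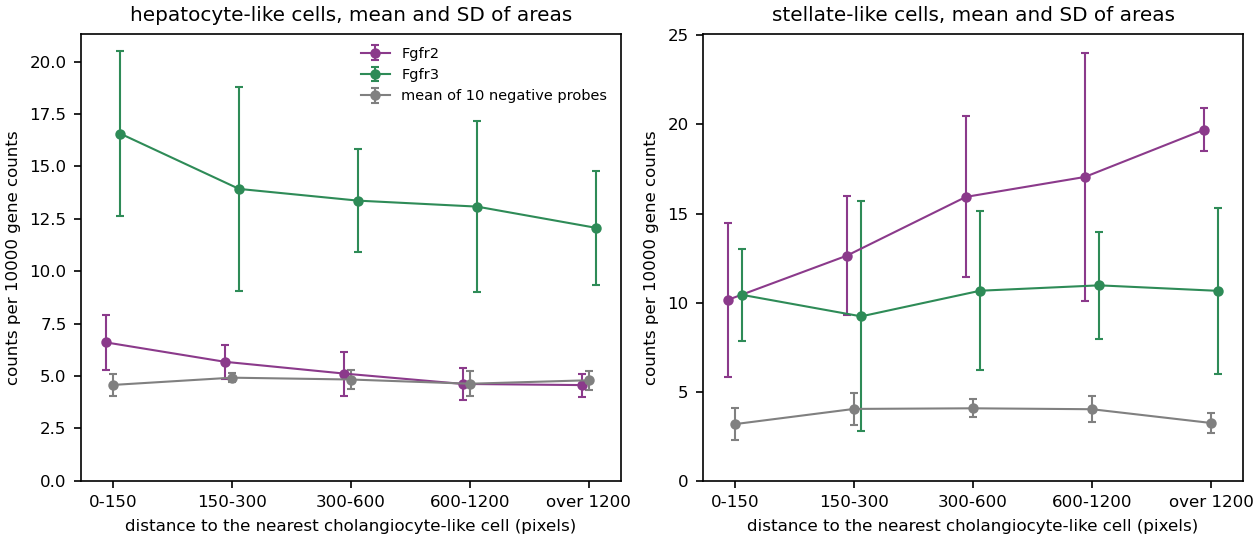
Levels of Fgfr2, Fgfr3 and the mean of the 10 negative probes in counts per 10000 gene counts against distance from the nearest cholangiocyte-like cell (pixels, unequal steps), in hepatocyte-like (left) and stellate-like cells (right); points and bars are means and SDs of the areas with at least 20 cells in the step (6, or 4 in the last stellate-like step). Over the steps with 6 areas, Fgfr2 in stellate-like cells runs from 10.2 in the nearest to 17.1 at 600 to 1200 pixels. From the nearest to the farthest step, Fgfr3 in hepatocyte-like cells runs from 16.6 to 12.1.

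Along the lobule, hepatocyte-like cells in the third nearest to the 1136 Glul-high cells were compared with the third farthest away. Glul, for glutamine synthetase, is the classical marker of hepatocytes around the central vein. Fgfr3 was 12.9 near and 14.6 far, lower near Glul-high cells in 5 of 6 areas (log2 ratio -0.17 ± 0.21, p = 0.0938, adjusted p = 0.258, exact sign-flip permutation test). Fgfr2 was 5.20 near and 4.88 far, higher near in 4 of 6 areas, and both levels were close to the mean negative probe in hepatocyte-like cells (4.75).

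PanCK is an antibody stain for keratins, which are rich in duct cells. Cholangiocyte-like cells above their area's median PanCK stain had 34.1 counts per 10000 of Fgfr3 and those below it 31.7 (higher in 4 of 6 areas, adjusted p = 0.516, exact sign-flip permutation test). For Fgfr2 the levels were 12.1 and 11.2 (4 of 6 areas, adjusted p = 0.344, same exact test).

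No difference in Fgfr3 between cells with and without a Fgfr2 transcript passed the test. In stellate-like cells Fgfr3 was 10.1 with and 10.4 without (log2 ratio -0.06 ± 0.31) and in cholangiocyte-like cells 30.97 and 33.4 (-0.10 ± 0.27; SD, n = 6 each). The negative probes moved further, by -0.23 and -0.31, and the median gene count was 123 with against 86 without a Fgfr2 transcript in the first class and 129 against 91 in the second. In hepatocyte-like cells the log2 ratio was -0.00 ± 0.10. The level of Fgfr2 there could not be separated from that of the negative probes, so nothing is read from this ratio. The adjusted p ranged from 0.516 to 1 by the exact sign-flip permutation test. In cholangiocyte-like cells, which were high in both receptors, only 361 of 2925 cells held a Fgfr2 transcript, so a difference smaller than the spread of areas was not detectable at this depth.

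**Figure D4:**
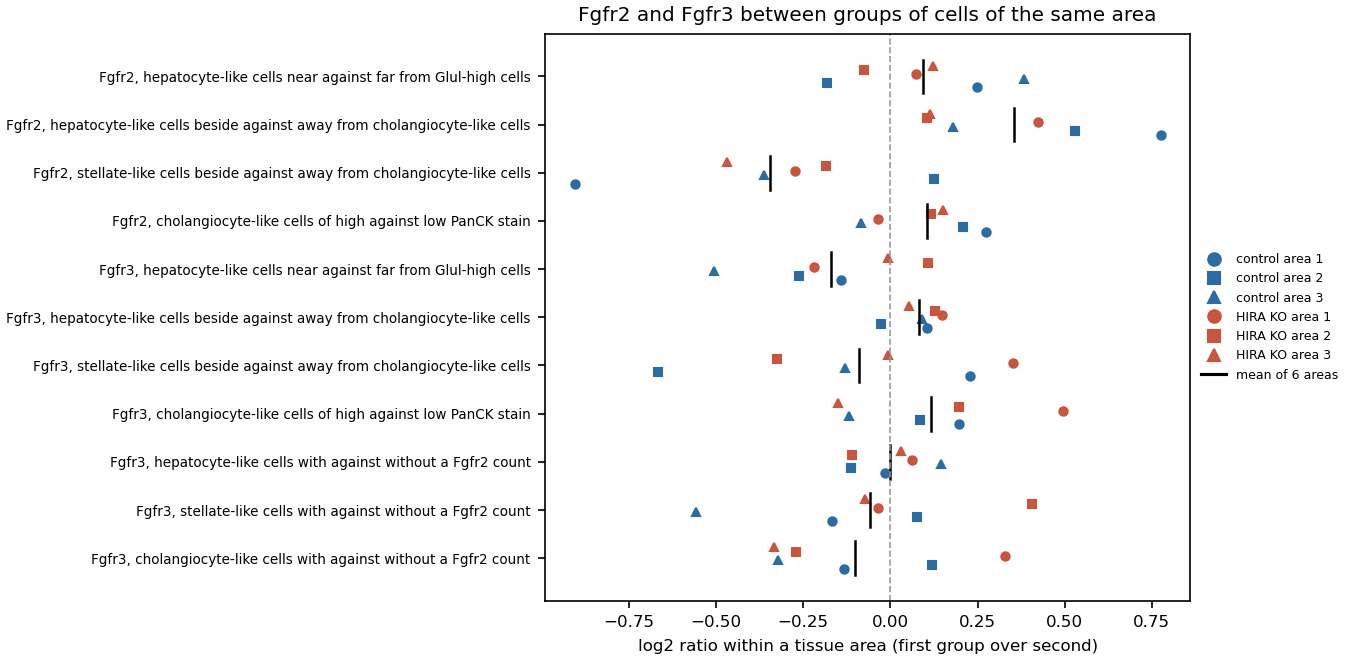
Log2 ratio of the level between 2 groups of cells of the same tissue area (first over second, horizontal axis) for each of the 11 comparisons; points are the 6 areas, black lines their mean, and the dashed line is no difference. Fgfr2 in hepatocyte-like cells beside cholangiocyte-like cells is the single comparison with all 6 areas on one side of 0 (mean 0.35), at levels near the negative probes.

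The table of single transcripts places each transcript in the nucleus, cytoplasm or membrane region of its cell. The nuclear share of Fgfr3 was 62.6%, 62.1% and 56.6% in control areas and 55.3%, 57.3% and 60.9% in HIRA KO areas. That of all gene targets was 42.7% to 52.9%, and Fgfr3 lay above it in 6 of 6 areas. Pooled over areas, the Fgfr3 share (59.1%) ranked 90 of 757 targets from the highest, while that of Fgfr2 (51.9%) ranked 325, near the median target at 50.8%. The negative probes had 25.8% to 31.5%.

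By class, the nuclear share of Fgfr3 was 72.3 ± 8.28% in cholangiocyte-like and 58.0 ± 6.30% in hepatocyte-like cells (SD, n = 6), against 55.3% and 44.3% for all targets in the same cells. It lay above all targets in 6 of 6 areas in both. In Kupffer-like cells it was 48.6 ± 4.41%, above all targets in 2 of 6 areas. For Fgfr2 the share was 60.2 ± 8.85% in stellate-like cells, above all targets in 5 of 6 areas, and 45.2 ± 6.68% in hepatocyte-like cells, above them in 4 of 6.

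Between genotypes the nuclear shares were compared by an exact permutation test of 3 against 3 areas, two-sided, which cannot give a p below 0.1. Control areas had a Fgfr3 share of 60.4 ± 3.34% and HIRA KO areas one of 57.85 ± 2.85% (SD, n = 3 each; exact permutation p = 0.3), and the Fgfr2 share 52.95 ± 1.78% and 50.9 ± 4.46% (exact permutation p = 0.7). The share of all targets moved in the same direction, from 50.9% to 45.7%. Within hepatocyte-like cells the shares were 61.9% and 53.98% for Fgfr3 (exact permutation p = 0.2) and 49.1% and 41.3% for Fgfr2 (exact permutation p = 0.3), beside 48.5% and 40.1% for all targets (exact permutation p = 0.1). Transcripts outside segmented cells made up 5.41 ± 1.33% of Fgfr2 in control and 5.89 ± 1.08% in HIRA KO areas (exact permutation p = 0.5), and 5.601 ± 1.21% and 6.64 ± 1.48% of Fgfr3 (exact permutation p = 0.3). Adjusted over these 4 tests, the p-values were 0.60 to 0.70. Both genes lay below the median target (6.69%) in this share when pooled over areas, at 5.65% and 6.07%.

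**Figure D5:**
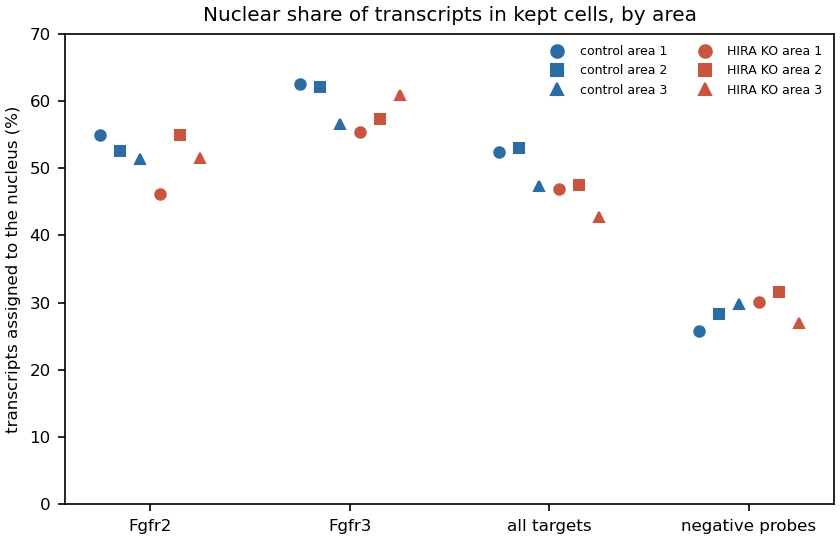
Percent of transcripts in kept cells that were assigned to the nucleus, for Fgfr2, Fgfr3, all gene targets and the negative probes; points are the 3 control (blue) and 3 HIRA KO (red) areas. Fgfr3 (55.3% to 62.6%) lies above all targets (42.7% to 52.9%), and the genotypes overlap for both genes.

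The genes most like each receptor were taken by Pearson correlation over 6 classes in 6 areas (36 points that share cells and gene totals, so no p is given), among 756 targets above the negative probes. For Fgfr2 they were Gsn (r = 0.78), Ramp1 (0.77), Rgs5 (0.75), Cxcl12 (0.74) and Bgn (0.74), all highest in stellate-like cells. For Gsn the likeness did not hold within stellate-like cells, where the Gsn-led cluster had less Fgfr2 than the Dcn-led (6.95 against 16.8). Gsn encodes the actin-severing protein gelsolin and Bgn the matrix proteoglycan biglycan. For Fgfr3 they were Clu (r = 0.89), Krt18 (0.88), Cd24a (0.87), Anxa4 (0.86) and Spp1 (0.86), all highest in cholangiocyte-like cells. Krt18 is a keratin of simple epithelia. The correlation between Fgfr2 and Fgfr3 themselves was 0.23. Markers of both classes were among the genes that formed the clusters.

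Of 28 other FGF ligands, receptors and co-receptors listed, 8 were measured, and Fgfr4 and Klb were not analysed here. Fgfr1, the receptor best known from mesenchymal cells, was highest in cholangiocyte-like cells with 9.19 ± 1.23 counts per 10000, 2.89 times the mean negative probe, and had 6.03 ± 0.44 in hepatocyte-like and 6.46 ± 1.03 in stellate-like cells (SD, n = 6). Among the ligands, Fgf7 had 10.4 ± 1.94 in stellate-like, 7.93 ± 1.11 in cholangiocyte-like and 11.9 ± 0.53 in hepatocyte-like cells. These levels were 2.78, 2.48 and 2.51 times the negative probes there. In T/NK-like cells Fgf7 had 11.4 ± 3.55, or 3.25 times the negative probes. Fgf1, a ligand of all FGF receptors, had 10.01 ± 0.50 in hepatocyte-like cells and 7.25 ± 1.51 in cholangiocyte-like cells, 2.12 and 2.29 times the negative probes. Fgf13, which belongs to the FGF-related factors that stay inside the cell, had 8.35 ± 0.46 and 4.21 ± 1.44 in the same classes, 1.77 and 1.29 times. Fgf18 ran from 5.87 in Kupffer-like to 8.11 in T/NK-like cells. None of these ligands stood out over the negative probes in a single class as the receptors did. Fgf2, Fgf9 and Fgf12 did not exceed the highest negative probe in total counts.

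For the pathway around the receptors, 26 targets were measured: these 8 family genes, the heparan sulfate proteoglycan Hspg2, 6 adaptors and kinases (among them Braf and Map2k1) and 11 feedback inhibitors and target genes (among them Spry2, Spry4, Dusp6 and Etv5). Of them 22 exceeded the highest negative probe, with a median of 1.87 times the mean negative probe. HIRA KO and control areas were compared in counts summed per area, with edgeR's quasi-likelihood test and Benjamini-Hochberg adjustment over all targets tested.

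None of the 26 pathway genes passed an adjusted p of 0.05 in edgeR's test over all cells or in hepatocyte-like, stellate-like, cholangiocyte-like, endothelial-like or Kupffer-like cells, and DESeq2 called 0 of the 26 in each as well. Over all targets edgeR's test called 0.2% over all cells, 0.1% in hepatocyte-like, 0.601% in stellate-like, 0% in cholangiocyte-like, 0.1% in endothelial-like and 0.301% in Kupffer-like cells, which is 2, 1, 6, 0, 1 and 3 targets, where DESeq2 called 10, 10, 5, 0, 2 and 5. The median log2 difference of the pathway genes lay between -0.03 and 0.04 in these 6 fits, against -0.01 to 0.00 for all targets. At an unadjusted p under 0.05 there were 4 pathway genes in stellate-like cells, 1 each in hepatocyte-like and cholangiocyte-like cells and 0 in the other 3 fits. Of all targets tested, 77 of 998, 110 of 998 and 63 of 991 did so in the first 3 classes and 73, 64 and 55 of 998 over all, endothelial-like and Kupffer-like cells. These are named because they are few, after their values were seen.

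In stellate-like cells they were Dusp5, a phosphatase that acts on ERK, with 7.93 counts per 10000 in control and 5.24 in HIRA KO areas (log2 difference -0.50 ± 0.19, SE; edgeR adjusted p = 0.373), the cell cycle gene Ccnd1 with 12.1 and 15.9 (0.44 ± 0.18; edgeR adjusted p = 0.467), Fos with 9.28 and 6.38 (-0.44 ± 0.19; edgeR adjusted p = 0.505) and Braf with 11.4 and 8.65 (-0.36 ± 0.18; edgeR adjusted p = 0.615). In cholangiocyte-like cells it was Dusp6, the phosphatase best known as a readout of FGF signalling, with 10.1 in control and 14.5 in HIRA KO areas (0.45 ± 0.23, SE; edgeR adjusted p = 0.769). In hepatocyte-like cells it was Fgf9, with 2.04 and 2.70, both below the mean negative probe. The 30 other receptor tyrosine kinases measured gave 0 calls in the same 6 fits.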

How the data were processed

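The authors imaged 5 µm sections of fixed, paraffin-embedded liver on 1 CosMx slide with a 1000-gene panel. Their deposited files hold the raw count of each target in each segmented cell, a table of single transcripts, and per cell an area in pixels and stain intensities; decoding and segmentation were the platform's, with versions not given in the sources used here. Cells with fewer than 20 counts or an area above 5 times the geometric mean were dropped, following the filter of the study. Pearson residuals (theta 100, clip 10) without FGF family genes gave 30 components, 20 neighbours and Leiden clusters at resolution 1.6 (leidenalg 0.10.2). A cluster was named where at least 3 markers were raised by over 0.5 (log2) and more of its 10 leading genes marked that class than any other; of 19 clusters 5, with 21.1% of cells, stayed unnamed. No doublet caller was run. Counts were summed per area and class, giving counts per 10000 gene counts, and logs used a pseudocount of 0.1. Genotype was tested with edgeR 4.0.16 (TMM, filterByExpr), with DESeq2 1.42.0 as an alternative; the edgeR script was tested on simulated data. Named genes are the receptors, measured FGF family genes above the highest negative probe, pathway genes called (none was), and the 5 targets most like each receptor; pathway genes at an unadjusted p under 0.05, family genes at the level of the negative probes, and markers beside a result were named after their values were seen. The members and lists were chosen with earlier results of these data known.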

Additional observations from a re-analysis of the deposited data

How the results depend on the processing

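The pathway counts stayed at 0 in all 6 fits with library size only, DESeq2, no filter on low counts, the slide row as a block, and each area left out. With the block, 17, 8, 7, 2, 8 and 9 of all targets were called over all, hepatocyte-like, stellate-like, cholangiocyte-like, endothelial-like and Kupffer-like cells. With negative probes subtracted, levels were 8.43 for Fgfr2 in cholangiocyte-like and 0.31 in hepatocyte-like cells, 6.58 for Fgfr3 in stellate-like and 8.79 in hepatocyte-like cells. With classes by marker score, cholangiocyte-like levels were 8.90 for Fgfr2 and 24.3 for Fgfr3. The genotype difference (log2) per cell area was 0.44, 0.66 and 0.52 for Fgfr2 over all, cholangiocyte-like and hepatocyte-like cells, and 0.46, 0.36, 0.28 and 0.46 for Fgfr3 over all, stellate-like, cholangiocyte-like and hepatocyte-like cells. All gene counts together were 0.62 higher per cell area, so these values are not read as a change of the receptors. For Fgfr2 it was -0.51 over all cells with negative probes subtracted and -0.34 in hepatocyte-like cells by marker score, where Fgfr3 went from -0.09 to 0.27 and Fgfr2 in stellate-like cells to 0.0081. Relative to all transcripts, the genotype difference in the share outside cells turned to -0.64 (Fgfr2) and -0.077 (Fgfr3) percentage points. With clusters made from all genes, Fgfr2 in hepatocyte-like cells moved from 0.35 to 0.14 beside ducts and from 0.09 to 0.30 near Glul-high cells. Fgfr3 there moved from 0.08 to 0.19 beside ducts with 10 nearest cells. With Glul-high cells taken per gene count, Fgfr3 moved from -0.17 to -0.09. None of these passed after adjustment. Fgfr2 in stellate-like cells beside ducts moved from -0.35 to -0.43 with 10 nearest cells and to -0.45 with clusters made from all genes (adjusted p = 0.115 each, exact sign-flip permutation test). The Fgfr3 ratio in hepatocyte-like cells with against without a Fgfr2 count turned to 0.0078 with 50 counts per cell and to 0.0017 with clusters made from all genes. The causes were not tested, beyond what each setting changes by construction.

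Leaving out 1 area at a time turned the sign of the Fgfr2 nuclear share difference (-4.11 to 0.32 percentage points; 0.32 without HIRA KO area 1), of the Fgfr2 outside share difference (-0.13 to 1.24; -0.13 without the same area), and of 3 Fgfr3 log2 ratios: in stellate-like cells beside ducts (-0.18 to 0.023, positive without control area 2), and with against without a Fgfr2 count in hepatocyte-like (-0.030 to 0.022, positive without control area 1, control area 2 or HIRA KO area 2) and stellate-like cells (-0.15 to 0.042, positive without control area 3). The genotype differences of the levels, none of which was called, moved by less than the spread of areas, but 6 of 8 changed sign: all 4 of Fgfr3 without control area 1 (0.03 to 0.18), and Fgfr2 in stellate-like cells without control area 3 or HIRA KO area 1 (up to 0.09) and in hepatocyte-like cells without any 1 of control area 3, HIRA KO area 2 and HIRA KO area 3 (up to 0.07). With 5 areas the sign-flip test cannot pass 0.05. The added restriction to Dcn-led cells was chosen after seeing the data. A few counts per cell limit any statement on single cells.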
